A study of Drosophila melanogaster with 15 samples.

Results

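The transcriptomes of heads of *D. melanogaster* males that lack the genes for both enzymes of transsulfuration, *CBS* (for cystathionine β-synthase) and *CSE* (for cystathionine γ-lyase), were compared with those of the control strain. All libraries labelled *CBS-/-CSE-/-*(1) or *CBS-/-CSE-/-*(2) were taken as 1 genotype, the double deletion. It comprised 5 libraries (replicates 1, 2 and 3 of strain (1) and replicates 2 and 4 of strain (2)) and was set against the 2 libraries of the control labelled WT (replicates 1 and 3). These 7 libraries are part of a series of 15, which also holds 5 libraries of *CBS-/-* strains and 3 of *CSE-/-*. The deletions were made with CRISPR/Cas9, and strains (1) and (2) are 2 separate lines with the same pair of genes removed. The control is Bloomington stock 58492, which expresses Cas9 from an actin promoter (*M{Act5C-Cas9.P. RFP-}ZH-2A*) and carries the alleles *y1*, *w1118* and *DNAlig4169* of *yellow*, *white* and *DNA ligase 4*, and the deletion strains share the *yellow* and *white* mutations with it. Whether they retained the Cas9 transgene and the *DNAlig4* allele is not given in the sources used here. Flies of both groups were naive males 5 days old, and each library was made from polyadenylated RNA of about 100 heads, so that a library is a pool of animals.

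In the transsulfuration pathway CBS condenses homocysteine with serine to cystathionine, and CSE cleaves cystathionine to cysteine, the precursor of glutathione and taurine. Both enzymes also release hydrogen sulfide from cysteine or homocysteine, and another enzyme, 3-mercaptopyruvate sulfurtransferase (MST), forms it from another cysteine derivative. Homocysteine that does not enter transsulfuration returns to methionine, the source of the methyl donor S-adenosylmethionine. In the annotation used here *CSE* has the symbol *Cth* (*Eip55E* in older releases), *CBS* has the symbol *Cbs*, and the gene for MST is CG12279.

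Levels are given as CPM, the count of a gene scaled to a common library total, with TMM normalization, which makes the bulk of genes agree between libraries. Reads counted on genes numbered 11595721 to 21144213 in the double deletion libraries, against 8336766 and 7316556 in the control libraries. In the control a count of 3 equals at most 0.410 CPM before TMM scaling. A gene was called when its Benjamini-Hochberg adjusted p in the quasi-likelihood test of edgeR was under 0.05 over the 9765 genes tested. Fold changes are on a log2 scale with the standard error (SE), positive where the double deletion was higher. The replicates are described as biological, but whether they came from separate cultures is not stated, so p-values measure the spread between these libraries. In whole heads a lower level can come from fewer cells of a type or from less RNA per cell, and these cannot be told apart.

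Both deleted genes were nearly silent in all double deletion libraries. *Cbs* (chromosome X, 21045138 to 21049096, build BDGP6/dm6) was at 0.384, 2.51, 0.652, 0.247 and 0.312 CPM in the double deletion, against 154 and 180 CPM in the control. Its log2 fold change was -7.58 ± 0.67 (adjusted p = 6.13e-04). The highest of the 5 values belonged to replicate 2 of strain (1). *Cth* (chromosome 2R, 18627918 to 18629395) was at 0.769, 1.05, 1.14, 1.54 and 1.04 CPM in the double deletion, against 29.0 and 34.4 CPM in the control, a log2 fold change of -4.84 ± 0.23 (adjusted p = 7.23e-05). The groups did not overlap for either gene, and both calls held in each of the 7 fits that left out 1 library. CG12279, the gene for MST, was at 30.7, 45.3, 55.6, 37.9 and 47.6 CPM in the double deletion, against 26.5 and 36.9 CPM in the control. Its groups overlapped and its log2 fold change of 0.43 ± 0.25 did not pass the test (adjusted p = 0.322). *white* was between 0.163 and 0.676 CPM in the double deletion and at 0.221 and 0 CPM in the control, and *yellow* was at or below 0.221 CPM in all 7 libraries. *DNAlig4*, named after its values were seen, was at 17.5 CPM or above in the double deletion, against 9.18 and 9.15 CPM in the control (log2 1.15 ± 0.20, adjusted p = 0.0113). This call held in 5 of the 7 fits that left out 1 library, and was lost without either control library.

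Across the transcriptome 538 genes were lower in the double deletion (5.51% of those tested) and 220 were higher (2.25%), so that 71.0% of the 758 calls were decreases. The change was at least 4-fold for 117 of the lower and 67 of the higher genes. The median log2 fold change of all 9765 genes was 0.01. At an unadjusted p under 0.05 there were 2385 genes. All 758 called genes had no overlap between the groups, which was also so for 31.1% of all genes tested. When trends with gene length within each library were removed, 545 genes were lower and 383 higher, or 58.7% decreases. The control had 2 libraries only, and the counts depended on both of them. Leaving out control replicate 1 gave 148 lower and 34 higher genes, and leaving out control replicate 3 gave 100 and 52. In each of the 7 fits that left out 1 library, 77 of the lower and 22 of the higher genes kept the call.

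**Figure D1:**
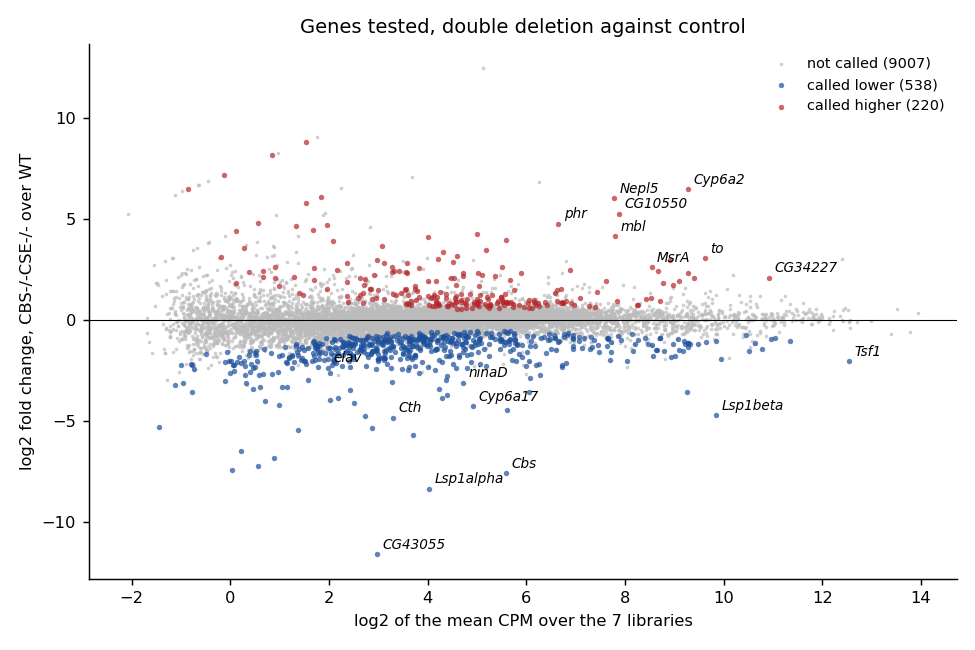
Log2 fold change of the double deletion over the control (vertical axis) against log2 of the mean CPM over the 7 libraries (horizontal axis) for the 9765 genes tested. Blue points are the 538 genes called lower, red points the 220 called higher, grey points the rest, and a few genes described in the text are labelled.

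Between the 2 double deletion strains, 34 of 9630 genes differed (0.353%), 21 of them lower and 13 higher in strain (1), with 526 at an unadjusted p under 0.05. Tested separately against the control, strain (1) gave 285 lower and 108 higher genes and strain (2) 221 and 103. Of these, 163 were lower and 59 higher in both. Both tests share the 2 control libraries.

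The steepest decreases among called genes with a mean of at least 5 CPM over the 7 libraries comprised *Cbs*, *Cth* and 8 further genes. CG43055 had no read in any of the 5 double deletion libraries, against 16.7 and 38.1 CPM in the control. Taken against the highest CPM that 3 counts equal in any double deletion library (0.244 CPM), it was at least 112-fold lower. *Lsp1alpha*, which encodes a subunit of a larval serum (storage) protein, was at 0.0769, 0.137, 0.0815, 0.0617 and 0.416 CPM in the double deletion, against 34.6 and 78.8 CPM in the control (log2 -8.35 ± 0.48, adjusted p = 7.30e-05). Its companion *Lsp1beta* was at 65.1, 44.5, 173, 95.3 and 186 CPM in the double deletion and at 2579 and 3284 CPM in the control (log2 -4.73 ± 0.49, adjusted p = 0.00133). Every double deletion library was thus far below both control libraries for these storage proteins. *Erasp* was at 0.247 to 2.13 CPM in the double deletion, against 35.2 and 51.8 CPM in the control (log2 -5.71 ± 0.54). CG33459 was at 0.185 to 1.46 CPM, against 20.3 and 28.3 CPM in the control (log2 -5.35 ± 0.58). *CARPB*, a carbonic anhydrase-related protein gene, was at 0.407 to 1.05 CPM in the double deletion and at 22.6 and 19.8 CPM in the control (log2 -4.77 ± 0.27). *Srg3* was at 2.54, 2.65 and 5.29 CPM in strain (1) and at 12.6 and 12.4 CPM in strain (2), against 117 and 190 CPM in the control (log2 -4.44 ± 0.60). *Cyp6a17*, a cytochrome P450 gene, was at 3.42 to 7.15 CPM in the double deletion and at 85.7 and 102 CPM in the control (log2 -4.26 ± 0.26). The adjusted p of these genes lay between 7.30e-05 and 0.00438, and each kept its call in all 7 fits that left out 1 library.

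Increases among called genes with a mean of at least 5 CPM over the 7 libraries were led by *Cyp6a2*, a cytochrome P450 of xenobiotic detoxification. It was at 941, 773, 1048, 547 and 1031 CPM in the double deletion, against 9.18 and 10.2 CPM in the control, which is 88.1-fold higher (log2 6.46 ± 0.38, adjusted p = 7.30e-05). The neprilysin-like gene *Nepl5* was at 226, 275, 487, 253 and 296 CPM in the double deletion and at 5.31 and 3.99 CPM in the control (log2 6.01 ± 0.43, adjusted p = 1.86e-04). CG10550 was at 296, 296, 433, 302 and 307 CPM in the double deletion and at 10.1 and 6.79 CPM in the control (log2 5.24 ± 0.30). The lowest double deletion library was therefore over an order of magnitude above the highest control library for all 3 genes. *phr*, which encodes the photolyase that repairs cyclobutane pyrimidine dimers, was at 111, 136, 183, 125 and 140 CPM in the double deletion, against 5.09 and 5.02 CPM in the control (log2 4.75 ± 0.27, adjusted p = 7.30e-05). Exons of *phr* overlap those of *Prosalpha1* on the other strand, and the strand setting of the counting is not given in the sources used here. *mbl* (*muscleblind*), a splicing regulator, was at 392, 390 and 265 CPM in strain (1) and at 274 and 196 CPM in strain (2), against 13.1 and 21.3 CPM in the control (log2 4.13 ± 0.39, adjusted p = 7.79e-04). CG34215 was at 28.9 to 57.7 CPM in the double deletion and at 1.99 and 2.51 CPM in the control (log2 4.27 ± 0.35). CG32750 was at 10.2 to 12.5 CPM, against 0.663 and 1.18 CPM in the control (log2 3.64 ± 0.28), and CG18467 at 37.4 to 58.8 CPM, against 5.75 and 2.95 CPM in the control (log2 3.46 ± 0.33). The remaining 2 leading genes rested on fewer libraries. CG11878 (28.3 to 121 CPM, against 1.33 and 7.23 CPM in the control) lost its call without control replicate 1 (adjusted p = 0.121). CG12780 (7.15 to 34.3 CPM, against 0.332 and 2.36 CPM in the control) lost it in 4 of the 7 fits, with an adjusted p of up to 0.217.

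**Figure D2:**
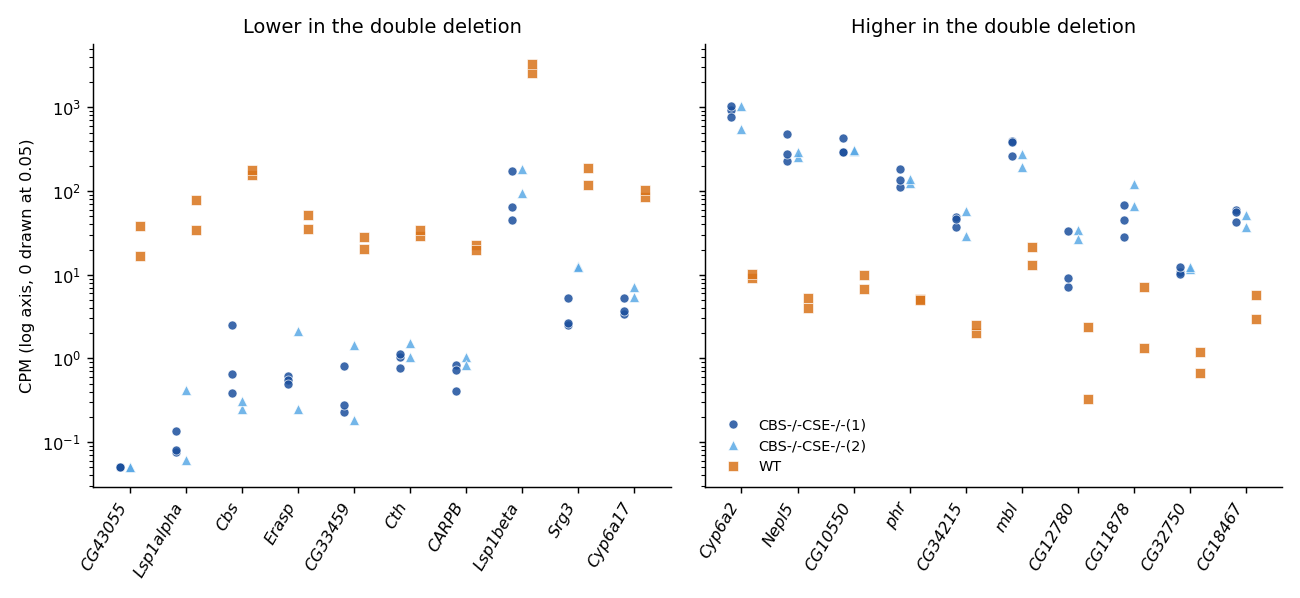
CPM by library (vertical log axis, 0 drawn at 0.05) of the 10 most decreased and the 10 most increased genes with a mean of at least 5 CPM. Strain (1) is shown as circles, strain (2) as triangles and WT as squares. The genes were selected for groups that do not overlap, and the distance between the groups is smallest for *CG11878*, *CG12780* and *CG18467*.

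Among the most abundant called genes, *Tsf1*, the iron-binding transferrin of the haemolymph, was at 2138, 1834, 3387, 3966 and 4501 CPM in the double deletion, against 11640 and 14180 CPM in the control (log2 -2.05 ± 0.34, adjusted p = 0.0105). *CtsK2* was at 939 to 1453 CPM in the double deletion and at 2650 and 3663 CPM in the control (log2 -1.42 ± 0.23). *Obp19d*, an odorant-binding protein gene, was at 1581 to 1835 CPM in the double deletion and at 2629 and 3593 CPM in the control (log2 -0.89 ± 0.18). FBgn0040813 (log2 -1.04 ± 0.26) and FBgn0000556 (log2 -0.95 ± 0.21), which have no symbol in the annotation, completed the 5 most abundant decreases. On the other side, CG34227 was at 1526 to 3680 CPM in the double deletion and at 531 and 625 CPM in the control (log2 2.09 ± 0.36). *takeout* (*to*), a clock-regulated gene with a role in feeding, was at 823, 1245, 1207, 701 and 1288 CPM in the double deletion and at 83.3 and 168 CPM in the control (log2 3.04 ± 0.40, adjusted p = 0.00353). CG3906 (log2 2.08 ± 0.49) and CG12116 (log2 2.34 ± 0.36) followed *Cyp6a2* in abundance. Of these 9 genes other than *Cyp6a2*, only *to* kept its call in every fit that left out 1 library. Without control replicate 3 the adjusted p of the others was 0.0216 for CG3906 and 0.0913 to 0.259 for the rest, and without control replicate 1 it was 0.0325 for *CtsK2* and 0.0614 to 0.171 for the rest.

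Genes around the pathway were mostly unchanged in call. Of 8 genes of transsulfuration and hydrogen sulfide metabolism tested, only *Cbs* and *Cth* were called. In the methionine cycle 1 of 10 genes was called. *Gnmt*, glycine N-methyltransferase, which consumes S-adenosylmethionine, was at 113, 304, 319, 420 and 374 CPM in the double deletion, against 824 and 1263 CPM in the control (log2 -1.79 ± 0.40, adjusted p = 0.0315). *Sam-S*, which makes S-adenosylmethionine, was at 102 to 157 CPM in the double deletion and at 147 and 156 CPM in the control, and *Ahcy*, which releases homocysteine, was at 118 to 203 CPM in the double deletion and at 145 and 269 CPM in the control. Neither passed the test. In folate and glycine one-carbon metabolism 3 of 19 genes were lower (15.8%, against 5.51% of all genes) and none higher. These were *Prat2* of purine synthesis (log2 -1.18 ± 0.18), *pug*, a multifunctional enzyme of the folate cycle (275 to 546 CPM, against 959 and 1226 CPM in the control, log2 -1.35 ± 0.26), and CG7560, methylenetetrahydrofolate reductase (25.7 to 49.4 CPM, against 78.7 and 101 CPM in the control, log2 -1.16 ± 0.24). The median of this list was -0.36. At an unadjusted p under 0.05 in the edgeR test there were 3 transsulfuration, 4 methionine cycle and 8 folate genes, against 2385 of all 9765 genes. *Gnmt* lost its call without either control library, as did the 3 folate genes.

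Of 27 genes of glutathione and redox metabolism 1 was lower (3.70%, against 5.51% of all genes) and 1 was higher (3.70%, against 2.25%). *MsrA*, methionine sulfoxide reductase A, which repairs oxidized methionine, was at 409, 514, 599, 386 and 541 CPM in the double deletion, against 79.4 and 79.3 CPM in the control (log2 2.60 ± 0.24, adjusted p = 6.74e-04), and this call held in all 7 fits that left out 1 library. *cnc*, the fly Nrf2 transcription factor, was at 14.8 to 22.0 CPM in the double deletion and at 38.6 and 38.7 CPM in the control (log2 -1.12 ± 0.18). Of 34 glutathione S-transferase genes, *GstZ1* was lower (log2 -1.21 ± 0.23), and *GstD5* (1.66 to 10.9 CPM, against 0.111 and 0.295 CPM in the control) and *GstE14* (75.9 to 118 CPM, against 52.4 and 51.8 CPM in the control) were higher. That is 2.94% lower and 5.88% higher, against 5.51% and 2.25% of all genes. Without control replicate 3 the adjusted p was 0.0660 for *cnc*, 0.169 for *GstZ1*, 0.153 for *GstD5* and 0.201 for *GstE14*, and without control replicate 1 only *GstZ1* kept its call. Among 23 genes of the Atf4 program, which answers amino acid shortage, 3 were lower (13%, against 5.51% of all genes) and 1 higher (4.35%, against 2.25%), with a median of 0.00134. None of these 4 calls held without control replicate 3. *chrb* (log2 -2.10 ± 0.29) and *scyl* (log2 -1.57 ± 0.24), both inhibitors of TOR signalling, and *PPP1R15*, a subunit of the phosphatase of eIF2α (log2 -0.73 ± 0.14), were lower. CG5535, an amino acid transporter gene, was higher (log2 1.04 ± 0.18).

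Detoxification genes moved in both directions. Of 74 cytochrome P450 genes tested, 13 were lower (17.6%, against 5.51% of all genes) and 5 higher (6.76%, against 2.25%), with a median of -0.26. Next to *Cyp6a17*, the lower genes included *Cyp4d21* (16.2 to 32.9 CPM, against 169 and 180 CPM in the control, log2 -2.88 ± 0.28) and *Cyp6t1* (15.8 to 29.4 CPM, against 65.8 and 86.4 CPM in the control, log2 -1.78 ± 0.22). *Cyp4ac1* (log2 -1.97 ± 0.28) and its neighbour *Cyp4ac2* (log2 -2.19 ± 0.32) fell together. The higher genes were *Cyp6a2*, *Cyp6a9* (30.1 to 40.7 CPM, against 8.96 and 5.76 CPM in the control, log2 2.18 ± 0.24), *Cyp9f3*, *Cyp4d8* and *Cyp4p2*. *Cyp4p2* was at 2.33 to 5.54 CPM in the double deletion and at 0.111 and 0 CPM in the control, whereas the adjacent *Cyp4p1* was at 0.244 to 6.66 CPM in the double deletion and at 43.8 and 73.2 CPM in the control (log2 -3.88 ± 0.66). Reads of such related neighbours can be split between them, so the values of this pair are less certain. Of the 18 calls, 6 held in every fit that left out 1 library (*Cyp6a17*, *Cyp4d21*, *Cyp6t1*, *Cyp6a2*, *Cyp6a9* and *Cyp4p2*). Among 23 UDP-glycosyltransferase genes 2 were lower and 3 higher. *Ugt36E1* was at 28.2 to 36.7 CPM in the double deletion and at 4.09 and 2.95 CPM in the control (log2 3.17 ± 0.21, adjusted p = 1.15e-04). *Ugt37A2* (log2 3.00 ± 0.60) and *Ugt37A3* (log2 1.51 ± 0.28) were also higher, and *Ugt37B1* (10.5 to 22.3 CPM, against 59.8 and 89.3 CPM in the control) and *Ugt301D1* (log2 -1.30 ± 0.24) were lower. *Ugt36E1* alone of these 5 kept its call in all 7 fits.

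Products of the fat body, the insect counterpart of liver and adipose tissue, were lower as a group. Of 26 genes for fat body and haemolymph proteins tested, 12 were lower (46.2%, against 5.51% of all genes) and none higher, with a median of -0.87. Next to both *Lsp1* genes and *Tsf1*, *Lsp2* was at 40.9, 46.9 and 135 CPM in strain (1) and at 184 and 354 CPM in strain (2), against 1260 and 2291 CPM in the control (log2 -3.57 ± 0.71, adjusted p = 0.0214). *apolpp*, the scaffold of the major haemolymph lipoprotein, was at 201, 213, 217, 158 and 150 CPM in the double deletion and at 543 and 534 CPM in the control (log2 -1.55 ± 0.18, adjusted p = 0.00232). *Mtp*, which loads lipid onto that lipoprotein, was at 30.5 to 46.9 CPM in the double deletion and at 94.3 and 95.8 CPM in the control (log2 -1.43 ± 0.18). *Glt* (glutactin) was at 81.3 to 173 CPM in the double deletion and at 505 and 622 CPM in the control (log2 -2.02 ± 0.25). *fat-spondin* (log2 -1.17 ± 0.20), *Sodh1* (log2 -1.53 ± 0.34), *Idgf4* (log2 -0.76 ± 0.18) and *Adh* (log2 -2.03 ± 0.42) were lower as well. The summed level of the list was 9267 to 13820 CPM in the double deletion and 27850 and 34900 CPM in the control. The sum of fat body markers was 1160 to 1789 CPM in the double deletion and 5324 and 7164 CPM in the control. This sum includes *Lsp1alpha*, *Lsp1beta*, *Lsp2* and *apolpp*, which are also in the list above. They were the 4 of 9 markers called lower (44.4%, against 5.51% of all genes), and the other 5 had no call. The part of fat body content in these decreases was not tested. Without control replicate 1 or control replicate 3, 5 of the 12 calls remained, and they were *Lsp1alpha*, *Lsp1beta*, *apolpp*, *Mtp* and *Glt* in both cases.

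In 28 genes of fat storage and lipid metabolism 4 were lower (14.3%, against 5.51% of all genes) and 2 higher (7.14%, against 2.25%). The triglyceride synthesis gene *Dgat2* was at 19.1, 20.8 and 19.5 CPM in strain (1) and at 48.4 and 44.8 CPM in strain (2), against 3.32 and 5.17 CPM in the control (log2 2.84 ± 0.54). The fatty acid synthase gene *FASN2* was higher (log2 1.34 ± 0.26). *Lip4*, a lipase gene, was at 10.2 to 14.6 CPM in the double deletion and at 36.9 and 27.9 CPM in the control (log2 -1.45 ± 0.18). *Lip2* (log2 -2.0 ± 0.33), the lipid droplet gene *Jabba* (log2 -0.80 ± 0.18) and *Gba1b* (log2 -2.01 ± 0.49) were lower. Of 41 genes of sugar and glycogen metabolism 3 were lower (7.32%, against 5.51% of all genes) and none higher. These were *Pgi* (log2 -1.09 ± 0.21), *Ald1* (log2 -0.88 ± 0.19) and *fbp* (fructose-1,6-bisphosphatase, log2 -1.51 ± 0.33). Among 14 genes of tyrosine and tryptophan catabolism 3 were lower (21.4%, against 5.51% of all genes) and 1 higher (7.14%, against 2.25%). The higher gene was *Hpd*, which degrades tyrosine, at 400 to 933 CPM in the double deletion and at 140 and 164 CPM in the control (log2 1.83 ± 0.37). The lower genes were *Hn*, phenylalanine hydroxylase (log2 -0.94 ± 0.22), *Pu* and *GstZ1*. Of the calls in these 3 lists only that of *Lip4* held in all 7 fits that left out 1 library.

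Of 24 neprilysins, metallopeptidases that cut small peptides, 11 were lower (45.8%, against 5.51% of all genes) and 2 higher (8.33%, against 2.25%), with a median of -0.95. *Nepl11* was at 242, 254, 377, 211 and 353 CPM in the double deletion and at 877 and 1113 CPM in the control (log2 -1.82 ± 0.24). *Nepl21* was at 39.0 to 66.5 CPM, against 147 and 182 CPM in the control (log2 -1.66 ± 0.19), *Nepl6* at 20.5 to 48.4 CPM, against 112 and 179 CPM in the control (log2 -2.27 ± 0.30), and *Nepl20* at 2.03 to 4.52 CPM, against 17.5 and 19.6 CPM in the control (log2 -2.43 ± 0.27). *Nepl5* and *Nep1* (64.7 to 85.5 CPM, against 40.5 and 37.6 CPM in the control) were the 2 higher members. Without control replicate 3 the calls of *Nepl20*, *Nepl21* and *Nepl5* remained out of these 13, and without control replicate 1 there were 7 lower and 1 higher.

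Among 50 humoral proteases, serpins and recognition proteins 11 were lower (22.0%, against 5.51% of all genes) and 3 higher (6.0%, against 2.25%), with a median of -0.36. Decreases were also 71.0% of the calls over all genes. *NimC1*, a phagocytosis receptor of haemocytes, was at 1.08, 1.64, 0.244, 0.863 and 1.09 CPM in the double deletion, against 16.4 and 18.5 CPM in the control (log2 -4.11 ± 0.42, adjusted p = 0.00120). *PPO2*, a prophenoloxidase of crystal cells, was at 12.2 to 21.8 CPM in the double deletion and at 50.8 and 77.5 CPM in the control (log2 -2.07 ± 0.23). *SPH93* was at 0.0815 to 0.260 CPM in the double deletion and at 13.6 and 3.54 CPM in the control (log2 -5.45 ± 0.52). These 3 calls held in all 7 fits that left out 1 library. The serpins *Spn43Ad* (log2 -1.76 ± 0.26) and *nec* (log2 -0.89 ± 0.19), the thioester protein *Tep2* (log2 -1.28 ± 0.21) and the peptidoglycan recognition protein *PGRP-SB1* (log2 -2.17 ± 0.45) were also lower, and the protease *grass* of the Toll cascade (91.6 to 170 CPM, against 41.7 and 46.2 CPM in the control) was higher. The haemocyte marker sum was 826 to 1152 CPM in the double deletion and 847 and 656 CPM in the control. *NimC1* and *PPO2* were the 2 called of 10 (20.0% lower, against 5.51% of all genes). Of 29 antimicrobial peptide genes, *Dso2* (log2 -0.94 ± 0.22) and *Drsl5* (log2 -1.03 ± 0.26) were lower and *BomS2* (312 to 516 CPM, against 253 and 146 CPM in the control) was higher, which is 6.90% lower and 3.45% higher, against 5.51% and 2.25% of all genes. These 3 calls held in 2, 2 and 1 of the 7 fits that left out 1 library. In the Turandot and JAK/STAT list *TotM*, a stress-induced humoral factor, was at 45.0 to 82.9 CPM in the double deletion and at 8.85 and 10.6 CPM in the control (log2 2.60 ± 0.29, adjusted p = 0.00191), and *Stat92E* was at 19.3 to 28.6 CPM in the double deletion and at 51.2 and 52.7 CPM in the control (log2 -1.22 ± 0.17). *TotM* kept its call in all 7 fits, whereas *Stat92E* had an adjusted p of 0.0539 without control replicate 3.

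Several lists of genes with neuronal roles, not all of them specific to neurons, had many lower members. Of 42 genes of neuronal RNA binding and translation, 22 were lower (52.4%, against 5.51% of all genes) and 1 higher (2.38%, against 2.25%), with a median of -1.34. *elav*, a pan-neuronal RNA-binding protein, was at 1.54, 2.05, 2.69, 1.54 and 1.30 CPM in the double deletion, against 10.5 and 7.97 CPM in the control (log2 -2.37 ± 0.30, adjusted p = 0.00316). Its relative *fne* was at 3.23, 4.25, 8.39, 2.84 and 3.43 CPM in the double deletion and at 16.5 and 17.1 CPM in the control (log2 -1.96 ± 0.37). *shep* was at 14.8 to 20.9 CPM, against 50.6 and 46.7 CPM in the control (log2 -1.42 ± 0.18), *cpo* at 9.51 to 15.4 CPM, against 34.3 and 39.4 CPM in the control (log2 -1.49 ± 0.19), and *mub* at 6.54 to 11.6 CPM, against 23.4 and 29.8 CPM in the control (log2 -1.75 ± 0.23). *Rbp6* (log2 -1.72 ± 0.23), *AGO1*, the effector of miRNA silencing, and *larp* fell as well. The lower members also included *how*, *mei-P26*, *Sxl*, *me31B*, *DCP2* and *bol*, so not all of the 22 are specific to neurons. The 1 member that rose was *mbl*.

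At the synapse 13 of 35 genes of synaptic vesicles and active zones were lower (37.1%, against 5.51% of all genes) and none higher, with a median of -0.56. The presynaptic calcium channel *cac* was at 2.23, 2.97, 3.91, 2.65 and 2.50 CPM in the double deletion and at 11.3 and 11.8 CPM in the control (log2 -2.04 ± 0.24, adjusted p = 0.00221). *cpx* (complexin), a clamp of vesicle fusion, was at 23.4, 30.4, 44.9, 26.1 and 22.0 CPM in the double deletion and at 115 and 124 CPM in the control (log2 -2.05 ± 0.25, adjusted p = 0.00306). *Syt1*, the calcium sensor of release, was at 9.67 to 21.0 CPM, against 47.3 and 51.7 CPM in the control (log2 -1.76 ± 0.25). The active zone scaffold *brp* was at 5.77 to 16.3 CPM, against 25.8 and 28.6 CPM in the control (log2 -1.30 ± 0.31). *Snap25* (log2 -1.51 ± 0.32), *Vap33* (log2 -1.33 ± 0.20) and *RhoGAP100F* (log2 -1.85 ± 0.30) were lower too. Among 29 voltage-gated and leak channels 9 were lower (31.0%, against 5.51% of all genes) and 1 higher (3.45%, against 2.25%), and 4 of the 9 kept the call without control replicate 1, as did 4 without control replicate 3. The potassium channels *SK* (1.87 to 3.75 CPM, against 12.5 and 12.7 CPM in the control, log2 -2.34 ± 0.28) and *Sh* (5.89 to 10.7 CPM, against 25.4 and 26.4 CPM in the control, log2 -1.86 ± 0.23) and the cation channel *Ih* (log2 -1.34 ± 0.18) fell. *Irk3*, an inward rectifier, was at 36.9, 50.8, 40.4, 41.2 and 41.0 CPM in the double deletion and at 6.74 and 9.74 CPM in the control (log2 2.33 ± 0.22, adjusted p = 7.79e-04). Of 36 transmitter receptors 6 were lower (16.7%, against 5.51% of all genes) and none higher, with a median of -0.25. None of the 6 kept the call without control replicate 1 and 2 did without control replicate 3, and the median of the list ranged from -0.51 to 0.14 when 1 library was left out. They included the acetylcholine receptor subunits *nAChRalpha5* (log2 -1.57 ± 0.31), *nAChRalpha6* (log2 -1.26 ± 0.19) and *nAChRalpha7* (log2 -1.69 ± 0.27), the GABA receptor *Rdl* (7.46 to 13.7 CPM, against 22.0 and 22.3 CPM in the control, log2 -1.31 ± 0.24) and the glutamate-gated chloride channel *GluClalpha* (log2 -1.10 ± 0.21).

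Of 51 genes with a role in learning and memory 22 were lower (43.1%, against 5.51% of all genes) and none higher, with a median of -0.61. *Pka-C1*, the catalytic subunit of protein kinase A, was at 4.23, 5.11, 7.0, 4.56 and 3.69 CPM in the double deletion and at 15.0 and 21.3 CPM in the control (log2 -1.91 ± 0.25, adjusted p = 0.00385). *CaMKII* was at 11.5 to 17.5 CPM, against 36.4 and 28.8 CPM in the control (log2 -1.26 ± 0.21), and *Cam* (calmodulin) at 43.3 to 81.0 CPM, against 194 and 161 CPM in the control (log2 -1.49 ± 0.24). *sgg*, the fly glycogen synthase kinase 3, was at 7.85 to 11.4 CPM, against 25.8 and 27.2 CPM in the control (log2 -1.48 ± 0.19). *igl*, a neuronal calmodulin-binding protein gene, was at 5.72 to 9.49 CPM, against 24.5 and 22.3 CPM in the control (log2 -1.58 ± 0.20). *Tob* (log2 -1.72 ± 0.21) and *Appl*, the fly homologue of the amyloid precursor protein (log2 -1.20 ± 0.18), were lower. Some genes stand in more than 1 of these lists, among them *cac*, *Sh*, *AGO1* and *RhoGAP100F*.

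**Figure D3:**
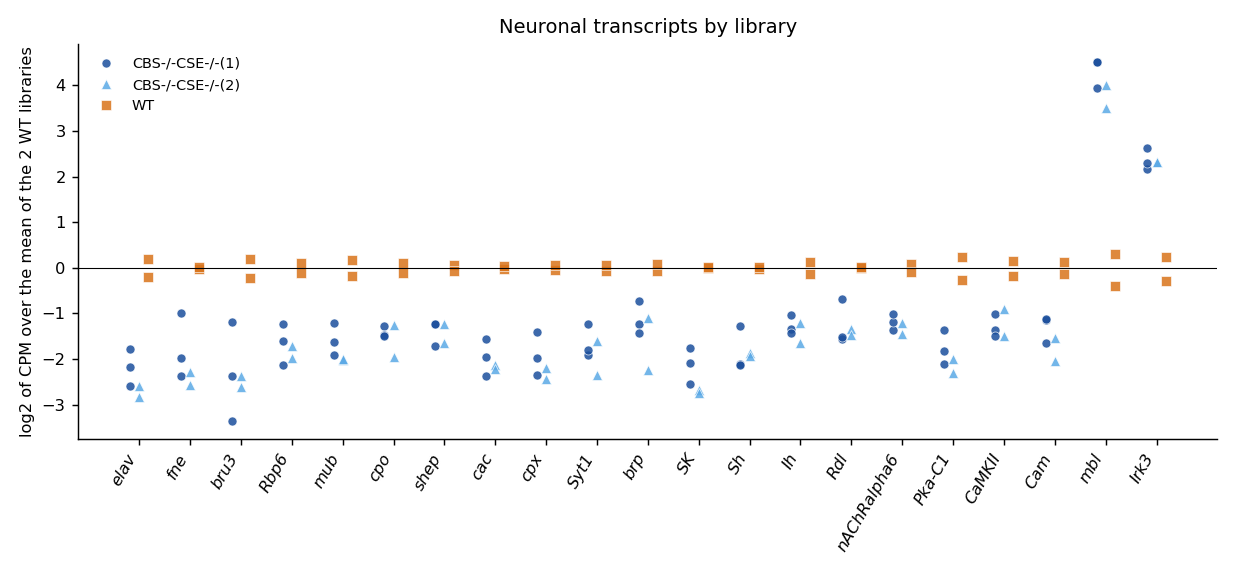
Log2 of the CPM in each library over the mean of the 2 WT libraries (vertical axis) for 21 neuronal genes, with strain (1) as circles, strain (2) as triangles and WT as squares. All 21 were chosen from called genes. The double deletion is lower for 19 genes and higher for *mbl* and *Irk3*.

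Several measurements moved with these neuronal lists. Their genes were long, with a median exon length of 8799 bases for neuronal RNA binding and 5588 to 6273 bases for the other 4 lists, against 2101 bases for all genes tested. When genes were split by exon length into 5 classes of like size, in the class of longest genes (4110 to 71820 bases) 188 of 1916 genes were lower (9.81%) and 13 higher (0.679%), and in the other classes 4.12% to 5.16% were lower. The libraries of a group did not share 1 trend with length. Genes of the longest class deviated from the mean of the 7 libraries by 0.217, -0.0398, -0.350, 0.105 and -0.156 (median log2) in the double deletion libraries and by 0.365 and -0.0989 in the control libraries. Replicate 3 of strain (1), with the lowest value of these, held the highest level of *elav*, *fne*, *cac* and *cpx* among the double deletion libraries. Its summed level of the synaptic (892 CPM), channel (934 CPM) and receptor (426 CPM) lists was the lowest of these libraries. For the RNA-binding (1637 CPM) and learning (2081 CPM) lists it was the highest. The groups overlapped in the channel sum (934 to 1854 CPM, against 1500 and 1003 CPM in the control). They also overlapped in the receptor sum (426 to 606.5 CPM, against 625.1 and 432.5 CPM). They did not overlap in the synaptic (892 to 1131 CPM, against 1585 and 1167 CPM), RNA-binding (1283 to 1637 CPM, against 1763 and 1850 CPM) and learning sums (1922 to 2081 CPM, against 3239 and 3253 CPM). With length trends removed within each library, 8 genes of neuronal RNA binding were lower, and the median of that list was -0.95. There were then 11 lower synaptic genes, 6 lower channel genes, 4 lower receptors and 15 lower learning genes, and in these lists 0 synaptic, 2 channel, 1 receptor and 2 learning genes were higher. Neuron markers were lower for 5 of 9 (55.6%, against 5.51% of all genes), namely *elav*, *Syt1*, *fne*, *Snap25* and *brp*. Their summed level was also lower, at 250 to 317 CPM in the double deletion and 439 and 320 CPM in the control. Glia markers had no call in 10 and a sum of 1182 to 1696 CPM in the double deletion and 1588 and 1324 CPM in the control. The part of gene length and of cell content in the decreases of these lists was not tested. Leaving out control replicate 1 kept 6 of the 22 RNA-binding, 4 of the 13 synaptic and 9 of the 22 learning calls, and leaving out control replicate 3 kept 5, 2 and 5. The calls that held in all 7 such fits were *elav*, *shep*, *cpo*, *cpx*, *cac*, *Sh*, *SK*, *Tob*, *sgg*, *igl*, *mbl* and *Irk3*. Of these, *shep* (adjusted p = 0.0622), *sgg* (0.0702) and *Sh* (0.0914) lost the call with length trends removed.

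**Figure D4:**
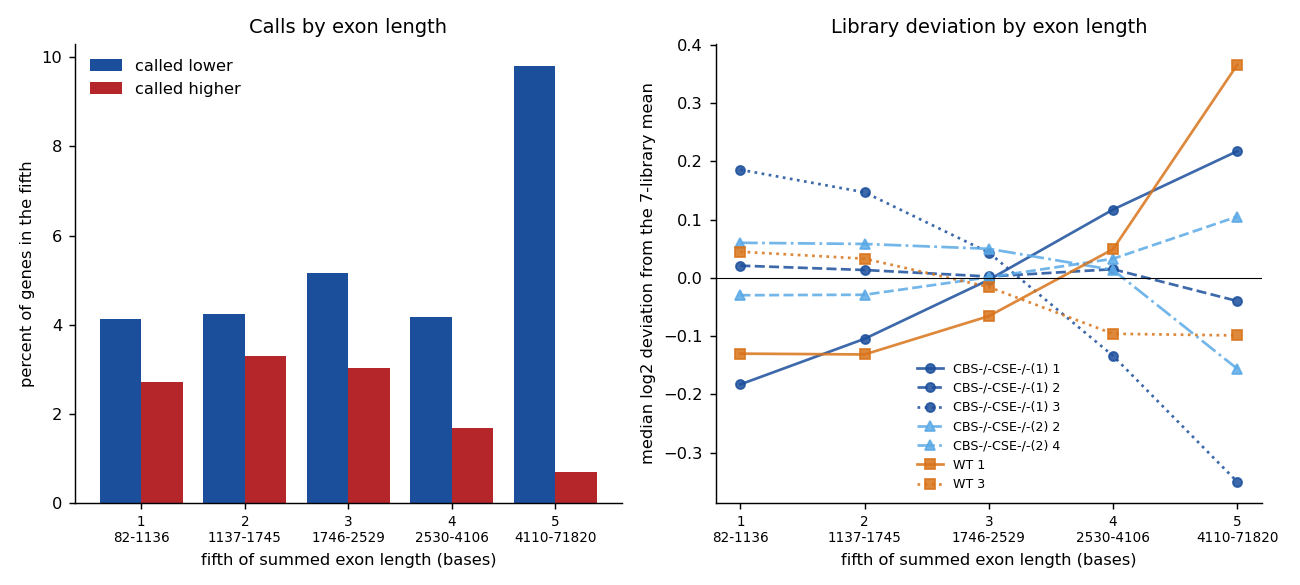
Genes tested were divided into 5 classes by summed exon length (horizontal axis, bases). The left panel gives the percent called lower or higher, and the right panel the median log2 deviation of each library from the mean of the 7 libraries, where the double deletion libraries (blue) and the WT libraries (orange) both fan out at the longest genes.

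Of 30 phototransduction genes 2 were lower (6.67%, against 5.51% of all genes) and 2 higher (6.67%, against 2.25%), and 13 had an unadjusted p under 0.05. *rdgB* (log2 -0.63 ± 0.13) and *inaF-B* (log2 -1.39 ± 0.29) were lower, and *Rh5*, a blue-sensitive rhodopsin (362 to 606 CPM, against 267 and 232 CPM in the control, log2 0.94 ± 0.22), and *stops* (log2 0.95 ± 0.19) were higher. None of these 4 calls held without control replicate 1, and none without control replicate 3. *ninaE*, the main rhodopsin, was at 8483 to 18930 CPM in the double deletion and at 10560 and 6838 CPM in the control, with no call. The sum of photoreceptor markers was 38000 to 56420 CPM in the double deletion and 34740 and 35060 CPM in the control, and none of 10 was called. *ninaD*, a scavenger receptor needed for carotenoid uptake, stood out. It was at 8.00, 11.4, 7.98, 6.91 and 7.85 CPM in the double deletion, against 70.7 and 71.9 CPM in the control (log2 -3.10 ± 0.18, adjusted p = 7.30e-05), a call that held in all 7 fits that left out 1 library. *ninaG*, an oxidoreductase of chromophore synthesis, was higher (log2 0.73 ± 0.18).

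Secreted signals and carrier proteins were split. Of 35 neuropeptide genes 4 were lower (11.4%, against 5.51% of all genes) and 4 higher (11.4%, against 2.25%). *CCHa2* (27.6 to 54.4 CPM, against 134 and 113 CPM in the control, log2 -1.61 ± 0.25), *sNPF* (4.15 to 8.38 CPM, against 19.4 and 13.4 CPM in the control, log2 -1.47 ± 0.27) and the insulin-like peptides *Ilp5* (log2 -1.07 ± 0.25) and *Ilp6* (log2 -0.96 ± 0.21) were lower. *Orcokinin* (47.3 to 94.0 CPM, against 26.1 and 20.5 CPM in the control, log2 1.48 ± 0.30), *Trissin* (log2 1.27 ± 0.26), *Mip* (log2 1.27 ± 0.28) and *FMRFa* (log2 1.10 ± 0.21) were higher. None of these 8 calls held in all 7 fits that left out 1 library. In the takeout family, carriers of small hydrophobic ligands, 3 of 19 genes were higher (15.8%, against 2.25% of all genes) and none lower, with a median of 0.56. Next to *to*, CG11854 was at 4.20 to 6.19 CPM in the double deletion and at 0.111 and 0 CPM in the control, and *Jhbp7* was at 15.5 to 18.1 CPM in the double deletion and at 4.64 and 5.91 CPM in the control (log2 1.65 ± 0.18). All 3 calls held in each of the 7 fits. Of 18 clock genes and outputs *Pdp1* (log2 -1.10 ± 0.21), *cwo* (log2 -1.02 ± 0.26) and *sgg* were lower and *to* was higher. That is 16.7% lower and 5.56% higher, against 5.51% and 2.25% of all genes. *cwo* kept its call in 0 of the 7 fits that left out 1 library, and *Pdp1* lost it without control replicate 1 (adjusted p = 0.0600), without control replicate 3 (0.175) and with length trends removed (0.284). Of 29 odorant-binding proteins *Obp19d*, *Obp57a* (log2 -1.12 ± 0.24) and *Obp56h* (log2 -0.65 ± 0.16) were lower and *Obp8a* (log2 1.23 ± 0.30) was higher. In this list 10.3% were thus lower and 3.45% higher, against 5.51% and 2.25% of all genes. Antennal genes, a list written after their values were seen, differed within both groups. The sum of 9 such genes, among them *Obp83a*, *Orco* and *a10*, was 215, 824, 590, 25.5 and 27.8 CPM in the double deletion libraries and 23.4 and 1273 CPM in control replicates 1 and 3, and the part of antennal content in the odorant-binding calls was not tested.

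Of 20 genes for metallothioneins and metal transport, *Tsf1*, *MtnC* (log2 -1.87 ± 0.45), *MtnD* (log2 -1.75 ± 0.38) and the zinc transporter *ZnT77C* (log2 -1.28 ± 0.27) were lower (20.0%, against 5.51% of all genes) and none higher. Of 27 cuticle proteins *Cpr49Af* was lower (log2 -1.72 ± 0.24), and *Cpr72Ec* (906, 764 and 1001 CPM in strain (1) and 285 and 261 CPM in strain (2), against 80.4 and 81.2 CPM in the control) and *Cpr97Eb* (log2 1.13 ± 0.28) were higher. Among cuticle proteins this is 3.70% lower and 7.41% higher, against 5.51% and 2.25% of all genes. None of these calls held in all 7 fits that left out 1 library.

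Housekeeping machinery showed no call. None of 81 cytosolic ribosomal proteins, 66 nuclear genes of oxidative phosphorylation, 31 proteasome subunits and 17 heat shock proteins passed the test, with medians of 0.09, 0.07, -0.05 and 0.19. At an unadjusted p under 0.05 there were 2 ribosomal, 4 oxidative phosphorylation, 2 proteasome and 1 heat shock genes, and the Wald test of DESeq2 called 1 ribosomal gene higher and 1 proteasome gene lower. *RpL5* was at 5245 to 8730 CPM in the double deletion and at 4997 and 7122 CPM in the control, *UQCR-C1* at 2279 to 3974 CPM, against 2529 and 3406 CPM in the control, and *Hsp60A* at 1021 to 1375 CPM, against 991 and 977 CPM in the control. Muscle markers had no call in 11 and a sum of 4886 to 6146 CPM in the double deletion and 5242 and 3781 CPM in the control. Midgut markers, which heads should lack, summed to 13820 to 37170 CPM in the double deletion and 6470 and 17710 CPM in the control. Of 26 tested the acid mannosidases *LManI* (11.1 to 14 CPM, against 56.9 and 74.4 CPM in the control) and *LManII* (177 to 267 CPM, against 755 and 795 CPM in the control) were lower (7.69%, against 5.51% of all genes). None was higher, and the median was 1.18. Male reproductive tract markers summed to 1.04 to 11.8 CPM in the double deletion and to 1.66 and 1.92 CPM in the control. The part of these tissues in the results was not tested.

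**Figure D5:**
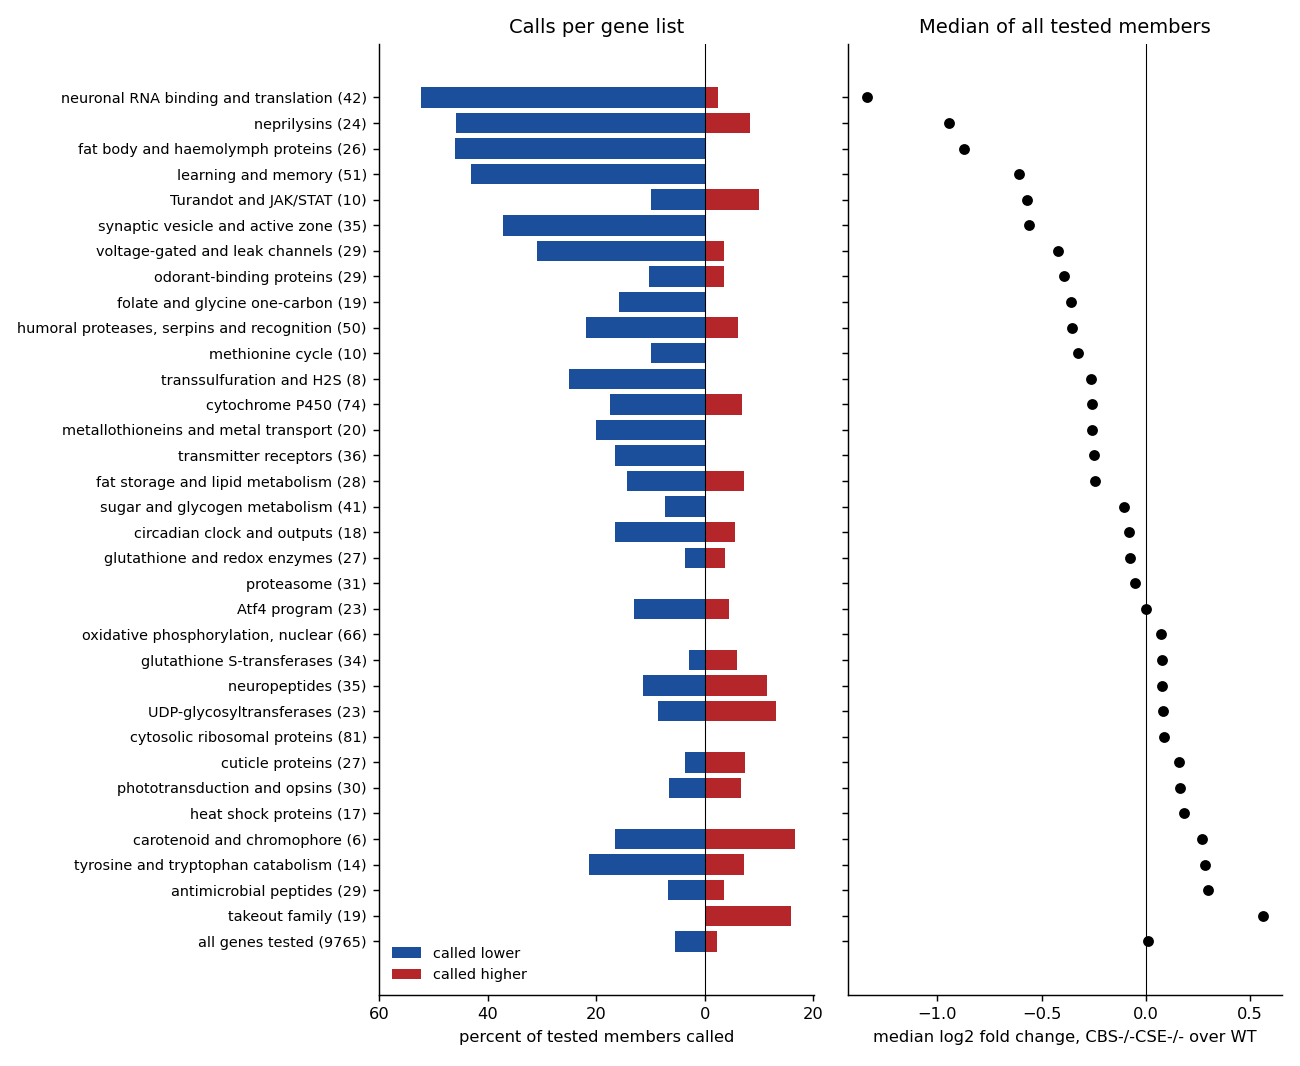
Percent of tested members called lower (left of 0) or higher (right of 0) in each gene list (left panel, number tested in parentheses) and median log2 fold change of all tested members of the list (right panel). The last row gives all 9765 genes tested, of which 5.51% were lower and 2.25% higher.

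Called genes were spread over all chromosome arms. On chromosome X 87 of 1566 genes were lower and 27 higher, and the arms 2L, 2R, 3L and 3R had 6.59% to 9.49% of their genes called in either direction. Of 80 genes tested on chromosome 4, 14 were lower (17.5%, against 5.51% of all genes) and none was higher. Within 1 Mb of *Cbs* 3 of 70 other genes were lower (*Obp19d*, *Cyp6t1* and CG34331) and none was higher. Within 1 Mb of *Cth* 9 of 197 other genes were lower and 3 higher. The share called in these windows was 4.29% and 6.09%. Of all genes tested 5.51% were lower and 2.25% higher.

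The leading genes were followed into the single deletion strains, with the double deletion set against each of them in its own fit that shares its 5 libraries. Against the 5 *CBS-/-* libraries 1325 of 9230 genes were lower in the double deletion (14.4%) and 1226 higher (13.3%), but these counts ranged from 143 to 2043 and from 180 to 1995 when 1 library was left out, and replicate numbers as a block left 21 and 25. Against the 3 *CSE-/-* libraries 68 of 9603 genes were lower (0.708%) and 98 higher (1.02%). *Cth* was at 40.6 ± 12 CPM (SD, n = 5) in *CBS-/-*, and *Cbs* at 83.6 ± 23.5 CPM (SD, n = 3) in *CSE-/-*, so each single deletion retained the other gene.

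For some genes both single deletions were also far below the control. *Lsp1alpha* averaged 0.155 ± 0.149 CPM in the double deletion (SD, n = 5), 0.0333 CPM in *CBS-/-*, 0.443 CPM in *CSE-/-* and 56.7 CPM in the control. *CARPB* averaged 0.773 CPM in the double deletion, 1.40 CPM in *CBS-/-*, 1.02 CPM in *CSE-/-* and 21.2 CPM in the control, and *ninaD* 8.43, 4.39, 7.37 and 71.3 CPM in the same order. Against *CBS-/-* the double deletion differed by -0.85 for *CARPB* (adjusted p = 0.0348) and by 0.94 for *ninaD* (adjusted p = 0.0148), and against *CSE-/-* neither was called. Other genes were high in *CSE-/-* and lower in *CBS-/-*. *Cyp6a2* averaged 868 ± 210 CPM in the double deletion, 625 CPM in *CSE-/-*, 64.6 CPM in *CBS-/-* and 9.68 CPM in the control, and the double deletion exceeded *CBS-/-* by 3.74 ± 0.33 (log2, adjusted p = 1.01e-04) while its difference from *CSE-/-*, 0.46 ± 0.28, was not called (adjusted p = 0.368). *phr* averaged 139 ± 27.0 CPM in the double deletion, 92.2 CPM in *CSE-/-*, 4.47 CPM in *CBS-/-* and 5.05 CPM in the control, with a difference from *CBS-/-* of 4.96 ± 0.30 (adjusted p = 5.21e-06). CG34215 averaged 43.9 CPM in the double deletion, 70.6 CPM in *CSE-/-*, 3.06 CPM in *CBS-/-* and 2.25 CPM in the control.

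A further set differed from both single deletions. *to* averaged 1053 ± 270 CPM in the double deletion, 130 CPM in *CSE-/-*, 90.5 CPM in *CBS-/-* and 126 CPM in the control. The double deletion was higher than *CBS-/-* by 3.53 (log2, adjusted p = 1.06e-05) and higher than *CSE-/-* by 3.01 (adjusted p = 0.00157). CG11854 averaged 4.97 CPM in the double deletion, 0.874 CPM in *CSE-/-* and 0.562 CPM in *CBS-/-*, with log2 differences of 2.49 from *CSE-/-* and 3.15 from *CBS-/-*. *NimC1* averaged 0.984 CPM in the double deletion, 9.15 CPM in *CSE-/-*, 23.1 CPM in *CBS-/-* and 17.4 CPM in the control, with a log2 difference of -3.17 ± 0.39 from *CSE-/-* (adjusted p = 0.00340) and of -4.50 ± 0.40 from *CBS-/-* (adjusted p = 1.09e-04). *mbl* averaged 303 ± 85.4 CPM in the double deletion, 155 CPM in *CBS-/-*, 40 CPM in *CSE-/-* and 17.2 CPM in the control, with a log2 difference of 2.92 from *CSE-/-* (adjusted p = 0.00232) and of 0.97 from *CBS-/-* (adjusted p = 0.0271). *MsrA* averaged 490 CPM in the double deletion, 341 CPM in *CBS-/-*, 163 CPM in *CSE-/-* and 79.3 CPM in the control, with a log2 difference of 1.59 from *CSE-/-* (adjusted p = 0.00807) and of 0.52 from *CBS-/-* (adjusted p = 0.0426). For *elav* the order was 1.82, 2.67, 3.80 and 9.24 CPM in the double deletion, *CBS-/-*, *CSE-/-* and the control, and neither difference from a single deletion was called (adjusted p = 0.121 and 0.194).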

How the data were processed

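Per the methods of the study, reads of directional libraries of polyadenylated RNA were trimmed with Trimmomatic and mapped to dm6 with STAR. The authors deposited raw counts per gene for each library, and the submitters' processing notes also name SAMtools and featureCounts. The counting settings and annotation release are not given in the sources used here. Summary lines of the files were left out (ambiguous reads were 5.14% to 8.27% of those assigned to genes or to such lines in the 7 libraries). Of 17453 identifiers 17179 matched the Ensembl annotation of BDGP6, which gave symbols, coordinates and exon lengths.

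Counts were tested in edgeR 4.0.16 (R 4.3.3) with filterByExpr, TMM and quasi-likelihood F tests (legacy option on), with Benjamini-Hochberg adjustment over all genes tested. The SE was derived from the fold change and its F statistic. CPM use TMM factors over the 15 libraries, set so that those of the 7 compared libraries multiply to 1. Across genes, log2 CPM of libraries of the same strain had a Pearson r between 0.983 and 0.989. In counts simulated for this comparison, on 9658 genes, the test recovered 66.7% of the genes lowered and 82.0% of those raised by 2 on the log2 scale, and 14.0% and 8.00% of those changed by 1. It called 0 of 9463 unchanged genes. Only 45 to 50 genes were changed at each size, and counts were drawn independently by gene and library. No strain, length or tissue difference was simulated, so these shares may not hold for the data.

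Members and lists were chosen with earlier results of these data known. The genes named are both targets with CG12279, the 10 lowest and 10 highest folds among called genes of at least 5 CPM without overlap, the 5 most abundant calls in each direction, and up to 5 called members of each list (otherwise the 2 most abundant). Of 222 named genes 89 were added after their values were seen. From the lists 5 entries were dropped, as they matched another gene or did not belong to the pathway, 31 matched none, and the list of the mitochondrial genome held no matched gene. Alternatives were RLE scaling, DESeq2 1.42.0, other filters, the legacy option off, all libraries in 1 fit, strains as groups or alone, thinning to the smallest library, a replicate block, length offsets (lowess span 0.3), stricter thresholds and leaving out each library. Tables used Python 3.11.15. Further replicates of the control and of strain (2) were not analysed here.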

Additional observations from a re-analysis of the deposited data

Results flagged for a closer look

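Among 222 named genes, 16 had 1 double deletion library far from the other 4, as measured by the gap to the nearest library over the whole range of the 5 (limit 0.71). Chance flags about 1 in 20 groups. The distant library was replicate 3 of strain (1) for 7 genes, each time the highest. These were CG10550 (gap 0.9164, 433 CPM against 296 to 307 CPM in the others), *RpL5* (0.8368), *Rdl* (0.8016), *fne* (0.7463), *Sh* (0.7358), *Nepl5* (0.7312) and *bru3* (0.7205). Replicate 4 of strain (2) was the highest for *Erasp* (0.8045), *Lsp1alpha* (0.7875), *PGRP-SB1* (0.756) and *Hpd* (0.7522, 933 CPM against 400 to 532 CPM in the others). Replicate 2 of strain (1) was the highest for *Cbs* (0.8211, 2.51 CPM against 0.247 to 0.652 CPM in the others) and *ninaD* (0.7578). Replicate 1 of strain (1) was the highest for *Ilp6* (0.7549) and *Mtp* (0.7123), and replicate 2 of strain (2) for *MtnC* (0.7309).

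Both double deletion strains differed in 34 genes, given here as log2 differences of strain (1) minus strain (2) with adjusted p under the edgeR test. Some antimicrobial peptide genes were among them, and all of those were lower in strain (1) than in strain (2). The differences were -3.159 for *AttA*, -3.039 for *AttB*, -3.377 for *AttC*, -3.337 for *DptA*, -3.565 for *DptB*, -1.579 for *Mtk*, -6.709 for *CecC* and -3.253 for *Drsl4*. *Drsl4* was at 29.2 to 59.1 CPM in strain (1), at 350 and 429 CPM in strain (2) and at 400 and 484 CPM in the control. For the other peptide genes named, both strain (2) libraries were above both control libraries. *AttA* was at 3.00 to 4.38 CPM in strain (1), at 30.7 and 32.2 CPM in strain (2) and at 7.09 and 7.41 CPM in the control. Strain (1) was below the control for these other genes except *Mtk*, where it was above. CG7542 (-7.997) was at 0.615 to 1.32 CPM in strain (1) and at 221 and 309 CPM in strain (2). *Dgat2* differed by -1.229 and *Rbp* by -1.677. *HDAC11* (5.846) was at 13.7 to 20.2 CPM in strain (1), at 0.156 and 0.431 CPM in strain (2) and at 8.41 and 12.2 CPM in the control. *Mal-B1* differed by 5.788 and CG13460 by 10.03, the last with no read in strain (2) or the control. *Cpr72Ec* differed by 1.708. The antennal genes *a5* (7.489), *a10* (6.463) and *Os-C* (3.845) were higher in strain (1), and they also differed between the control libraries, with *a10* at 2.88 and 349 CPM.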

How the results depend on the processing

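The decreases of *Cbs* and *Cth* held in every alternative that gave a value. The 538 lower and 220 higher genes against the control became 285 and 108 with strain (1) only, 221 and 103 with strain (2) only, 123 and 47 with the replicate block, and 169 and 41 at an adjusted p under 0.01. DESeq2 gave 714 lower and 432 higher genes, length offsets 545 and 383, and a fold change of at least 2 left 404 and 135. Leaving out 1 library gave 100 to 508 lower and 34 to 200 higher genes. The lowest counts came without control replicate 3 (100 lower) and control replicate 1 (34 higher). Against *CBS-/-* the block gave 21 lower and 25 higher genes, and leaving out 1 library 143 to 2043 and 180 to 1995. Against *CSE-/-* DESeq2 gave 222 and 355, the block 14 and 36, and leaving out 1 library 23 to 55 and 27 to 118. *AttC* reversed with strain (1) only (-1.618, against 0.62 with both strains). The median of the antimicrobial peptide list reversed as well (-0.45, against 0.30 with both strains). The cause of these shifts was not tested.

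Of 187 called named genes, 110 lost the call without control replicate 1, 123 without control replicate 3, 110 under the block, 22 of 185 with length offsets and 0 with DESeq2. Same-numbered libraries deviated together at r of 0.246 and 0.357 in the 2 pairs with the control and 0.112 between the strains. With fewer than 3 pairs between the double deletion and the control, the numbers were not taken to pair the samples. The block left 8 lower genes of neuronal RNA binding, 7 synaptic, 6 learning, 0 receptor and 3 cytochrome P450 genes. Without it there were 22, 13, 22, 6 and 13. With 2 control libraries of 8336766 and 7316556 reads, changes of 2-fold were seldom recovered in simulation, where far fewer genes changed than were called here. A gene without a call may still differ.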

Other observations

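The genes below were chosen after their values were seen, and their adjusted p come from the same edgeR test. The second photolyase gene of the fly, *phr6-4*, which repairs (6-4) photoproducts, was high together with *phr*. It was at 2.92, 5.34, 4.15, 4.69 and 4.99 CPM in the double deletion, against 0.221 and 0.148 CPM in the control (log2 4.47 ± 0.48, adjusted p = 0.00150), and averaged 1.49 CPM in *CBS-/-* and 2.86 CPM in *CSE-/-*. *Damm*, a caspase gene, was at 2.23, 2.10, 6.43, 3.14 and 6.29 CPM in the double deletion and had no read in either control library.

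Of genes of the ecdysone response, 4 were picked because they were called lower, and others were not tallied. *EcR*, the ecdysone receptor, was at 0.846 to 1.55 CPM in the double deletion, against 3.21 and 3.69 CPM in the control (log2 -1.62 ± 0.32, adjusted p = 0.0194). *ftz-f1* (log2 -1.81 ± 0.34), *Eip75B* (log2 -1.12 ± 0.23) and *Eip93F* (log2 -0.86 ± 0.15) are the other three. These 4 genes have exons of 8581 to 13451 bases in sum. Each of the 4 kept its call in 5 of the 7 fits that left out 1 library. With length trends removed *EcR* (adjusted p = 0.0842), *Eip75B* (0.0980) and *Eip93F* (0.353) lost the call, and *ftz-f1* kept it (0.0475). *Adi1*, of the methionine salvage pathway, was at 33.8 to 47.9 CPM in the double deletion and at 64.7 and 99.6 CPM in the control (log2 -0.95 ± 0.20). *SamDC*, which commits S-adenosylmethionine to polyamine synthesis, was at 9.29 to 13.3 CPM in the double deletion and at 24.3 and 23.3 CPM in the control (log2 -1.07 ± 0.18). *Fmo-1* (log2 -0.85 ± 0.18) and *Fmo-2* (log2 -1.0 ± 0.20), flavin-containing monooxygenases, were also lower.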
